A study of Mus musculus with 4 samples.

Results

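The genes of oxidative phosphorylation were followed in RNA of whole mouse skin. Members were taken by gene name: the Nduf families a, b, c, s and v of complex I, Sdha to Sdhd of complex II, Uqcr genes and Cyc1 of complex III, Cox4 to Cox8 of complex IV, Atp5 genes of complex V, and the protein genes of the mitochondrial genome, written mt-. Names marked as pseudogenes were left out, and the rule itself uses no measured value. The rule took 106 of the 47725 genes in the deposited table, 93 encoded in the nucleus and 13 in mitochondrial DNA. Of these, 104 passed the filter on low counts. The untested members, Cox7b2 and Cox8c, had no counts in any library.

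Skin of C57BL/6J mice aged 17 weeks was compared between animals labelled cKO and animals labelled PP6fl/fl, called control here, with 2 libraries per group numbered 2 and 3. Both groups carry the floxed allele of Ppp6c, the catalytic subunit gene of protein phosphatase 6. The series title joins it to K5 in the other group, read here as the promoter of keratin 5, which is active in basal keratinocytes and not in most other cells of skin. Whether libraries came from separate animals is not labelled, so each p-value reflects only how these libraries vary, and that variation may be technical. Counts summed to between 15837136 and 23407731 per library. The targeted transcript Ppp6c stood at 62.1 and 50.1 CPM (counts relative to library size, scaled with TMM factors) in cKO replicates 2 and 3 and at 57.8 and 61.8 CPM in control replicates 2 and 3, so the genotype rests on the titles. Keratinocyte and fibroblast markers were abundant in all 4 libraries: Krt5 lay at 5290 and 3164 CPM in cKO, against 4414 and 4142 CPM in control, and Col1a1 at 4932 and 2492 CPM in cKO, against 1679 and 1025 CPM in control.

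Oxidative phosphorylation couples electron transport to ATP synthesis in the inner mitochondrial membrane. Complexes I and II pass electrons to coenzyme Q, complex III hands them to cytochrome c, complex IV reduces oxygen, and the proton gradient drives the ATP synthase, complex V. Complex II is encoded wholly in the nucleus, whereas the others combine nuclear subunits with subunits made inside the organelle from polycistronic mitochondrial transcripts. Skeletal muscle, present in skin as the panniculus carnosus, is rich in mitochondria and uses its own forms of several complex IV subunits.

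Most members differed little between the group means. Of 104 tested members, 0 were higher and 0 were lower in cKO by edgeR's quasi-likelihood test (Benjamini-Hochberg adjusted p under 0.05), where 1.09% of all 17440 tested genes were called, 0.740% higher and 0.350% lower. At an unadjusted p under 0.05, 2 members were higher and 4 lower, in a test that gave 20% of all genes, 10.3% higher and 9.69% lower. DESeq2 called 0 members higher and 1 lower, Ndufa4l2, where it called 10.8% of all genes, 6.19% higher and 4.62% lower. The edgeR exact test also called only Ndufa4l2 among members and 10.4% of all genes, 5.64% higher and 4.74% lower. With limma voom 0 members were called, against 1.15% of all genes, 0.757% higher and 0.390% lower. The log2 fold change (cKO over control) lay within 0.5 of 0 for 94 members, a share of 90.4%, and for 65.0% of all tested genes. Its median was -0.07 over the 91 tested nuclear members and -0.12 over the 13 mt- members, beside -0.0014 over all tested genes. Members were also more abundant, with a median FPKM (fragments relative to transcript length and library size) of 55.9, against 5.32 over all tested genes. The part of abundance in these shares was not tested. In 27 members both cKO libraries lay below both control libraries, a share of 25.96% where all genes gave 27.7%. In 7 members both lay above, 6.73% against 25.1% of all genes, and the groups did not overlap in either direction in 52.9% of all genes.

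**Figure D1:**
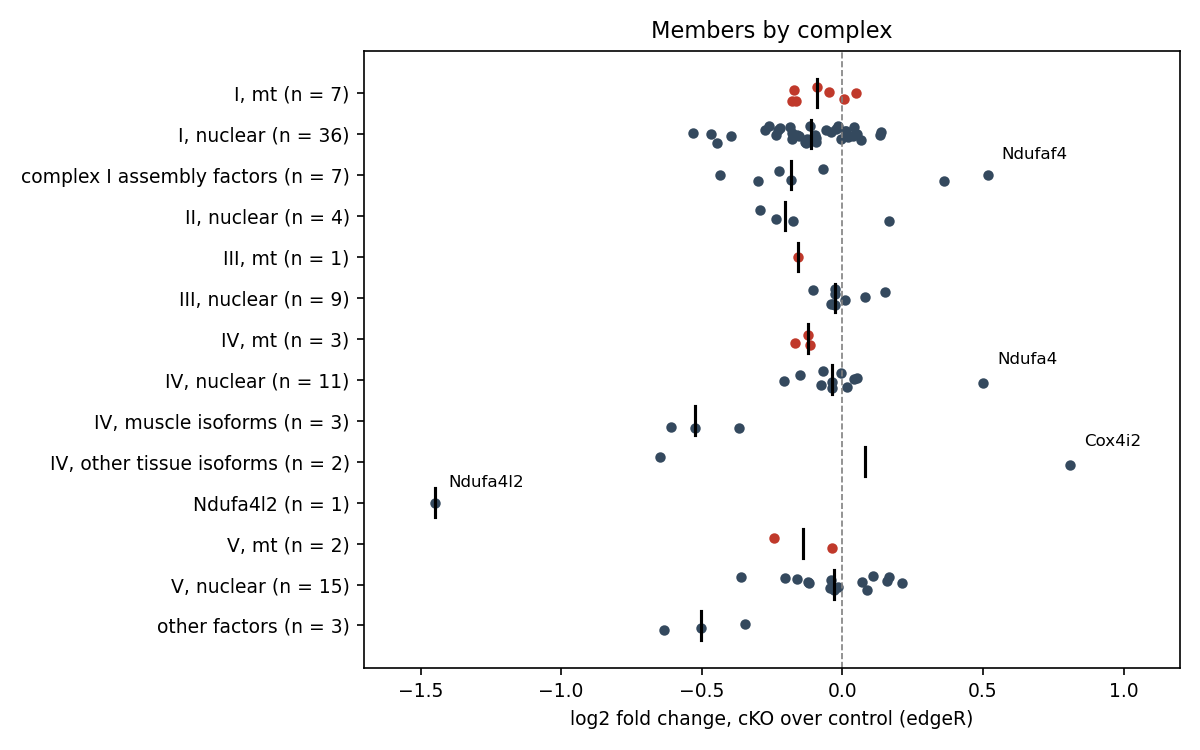
Log2 fold change (cKO over control) of each tested member on the horizontal axis, by complex and genome of origin; red points are mt- members, dark points nuclear members, and the bar is the median of the row. Nearly all points lie within 0.5 of 0, and Ndufa4l2 stands alone at -1.45.

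The libraries of the cKO group differed from each other more than the groups did. Transcripts of the 13 mt- members made up 3.35% of counts in cKO replicate 2 and 5.40% in cKO replicate 3, against 4.95% and 5.07% in control replicates 2 and 3. Nuclear members made up 0.769% and 0.944% in cKO replicates 2 and 3, against 0.911% and 0.928% in control. The exact Clopper-Pearson 95% intervals of these shares are at most 0.0212 percentage points wide and cover counting error only. The control libraries were close together, and the cKO libraries lay on either side of them. The summed mt- counts were 4.36 and 5.72 times the summed nuclear counts in cKO replicates 2 and 3, and 5.43 and 5.46 times in control, with means of 5.04 ± 0.963 in cKO and 5.45 ± 0.0224 in control (SD, n = 2 each). The cKO values lay on either side of the control values. In bulk tissue, fewer cells of a type and less RNA per cell cannot be told apart.

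Cytochrome oxidase genes of muscle showed the same library most sharply. Cox6a2, Cox7a1 and Cox8b summed to 23.0 CPM in cKO replicate 2 and 220 CPM in cKO replicate 3, against 138 and 187 CPM in control replicates 2 and 3. The 20 skeletal muscle markers, among them Ckm, Acta1 and Myh4, summed to 2945 and 19201 CPM in cKO replicates 2 and 3, against 13305 and 20467 CPM in control. All 20 were detected in every library, Tnnc2 with only 1 count in cKO replicate 2, and each was lowest there. All 20 had negative log2 fold changes, with a median of -0.73, and of 0.06 without cKO replicate 2. In 1 of the 20, Myh2, both cKO libraries lay below both control libraries. It stood at 41.7 and 181 CPM in cKO, against 376 and 515 CPM in control (adjusted p in edgeR quasi-likelihood = 0.237, in DESeq2 = 0.0274). The part of these 20 markers in the values of the members was not tested. Without cKO replicate 2 the median log2 fold change was 0.03 over nuclear members and 0.15 over mt- members; without cKO replicate 3 it was -0.22 and -0.54. Markers of other cell types differed between libraries as well, and their part was not tested: 11 hair matrix and shaft markers summed to 5601 and 1555 CPM in cKO replicates 2 and 3, against 1033 and 145 CPM in control. The 7 fibroblast markers summed to 19523 and 12351 CPM in cKO, against 7432 and 6508 CPM in control. The 7 basal keratinocyte markers summed to 18784 and 12226 CPM in cKO, against 11967 and 11558 CPM in control. That sum was carried by Krt14, at 11502 and 7742 CPM in cKO, against 3900 and 3007 CPM in control, whereas 5 of the 7 had negative log2 fold changes and their median was -0.24. The 8 neutrophil markers summed to 1427 and 987 CPM in cKO, against 81.2 and 95.2 CPM in control. Both cKO libraries lay above both control libraries in 7 of the 8 and below in 1, where the log2 fold change was -0.45. All tested genes gave 25.1% above and 27.7% below. Adipocyte markers, 10 in number, summed to 932 and 1049 CPM in cKO, against 1319 and 2005 CPM in control. Of brown adipocyte markers, Ucp1 was at 0 in 3 libraries and had 3 counts in control replicate 2, and the 4 tested others, Cidea, Dio2, Elovl3 and Pank1, summed to 297 and 434 CPM in cKO, against 457 and 425 CPM in control. Within that sum Dio2 lay above control in both cKO libraries, at 37.6 and 344 CPM in cKO, against 23.7 and 23.0 CPM in control, and the other 3 lay below control in both.

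**Figure D2:**
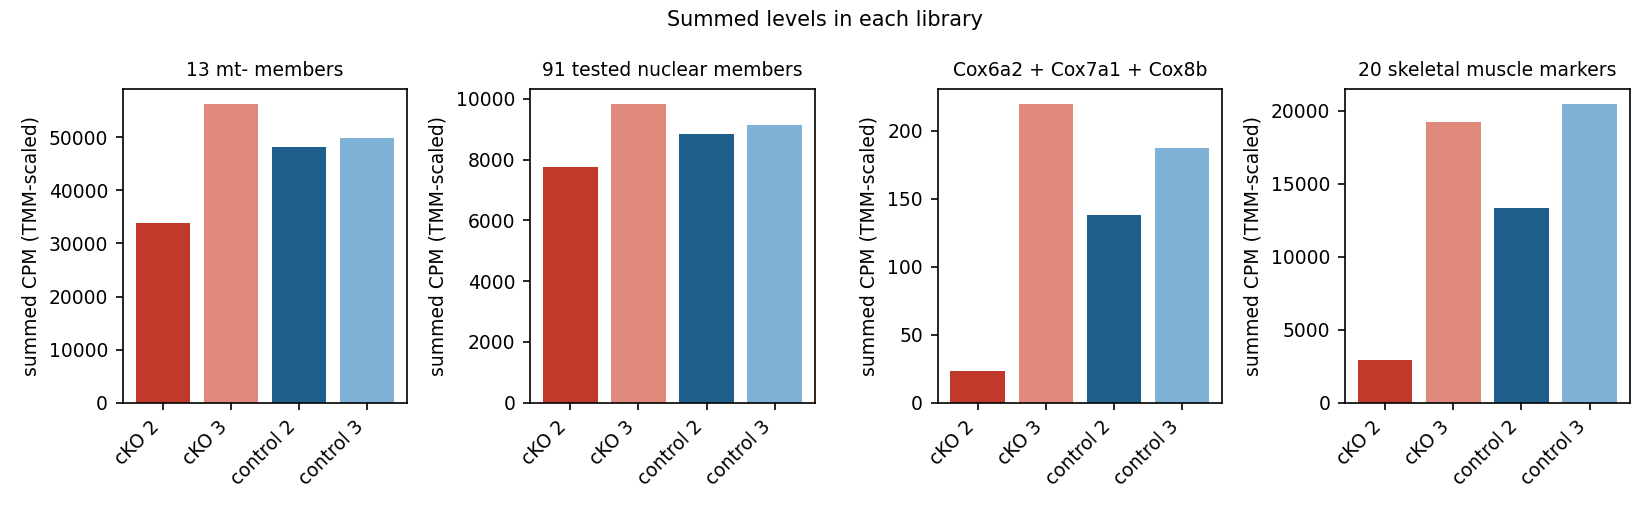
Summed TMM-scaled CPM of 4 gene sets, 1 bar per library, each panel on its own axis from 0. In every panel cKO replicate 2 is lowest, at 33779 CPM for the mt- members, where cKO replicate 3 reached 56291 CPM and the control libraries 48142 and 49920 CPM.

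Across single members, cKO replicate 2 was the lowest of the 4 libraries in 79 of 104 tested members, a share of 76.0%, where 27.9% of all tested genes had their lowest value there. This held for 13 of 13 mt- members and 66 of 91 nuclear ones. The ratio of cKO replicate 2 to cKO replicate 3 had a median of 0.614 over mt- members and 0.857 over nuclear members, beside 1.02 over all tested genes. Control replicate 2 over control replicate 3 had medians of 0.964 and 0.972 in these sets. By these medians the replicate difference was wider in cKO than in control. This did not hold in every part: complex I assembly factors ran from 0.806 to 1.25 in cKO and from 0.729 to 1.30 in control.

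**Figure D3:**
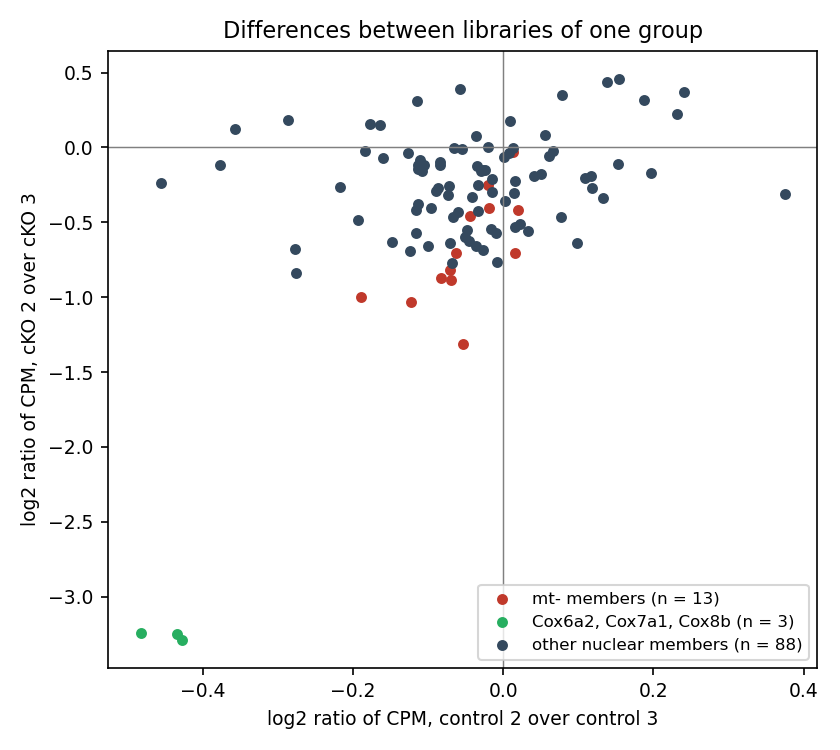
Each point is a tested member, with the log2 ratio of the control libraries on the horizontal axis and of the cKO libraries on the vertical axis, both replicate 2 over replicate 3 in CPM. Mt- members (red) reach a cKO ratio of 0.403 on the linear scale, and Cox6a2, Cox7a1 and Cox8b (green) lie apart at 0.102 to 0.106.

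Among genes of the mitochondrial genome, the differences between cKO libraries were unequal. For complex I, mt-Nd2 stood at 1449 and 3599 CPM in cKO replicates 2 and 3, against 2805 and 2911 CPM in control. Both control libraries lay between the cKO libraries, and the log2 fold change was -0.18 ± 0.50 (SE; adjusted p in edgeR quasi-likelihood = 0.885). The subunit gene mt-Nd5 gave 2417 and 4940 CPM in cKO, against 3641 and 3964 CPM in control. The gene mt-Nd6, the only protein gene on the other strand of the genome, gave 554 and 1106 CPM in cKO, against 772 and 880 CPM in control. It abuts mt-Nd5, and the counting is not stated to have been stranded, so reads of these neighbours cannot be told apart with certainty. The same order of libraries held for mt-Nd1 (2723 and 4980 CPM in cKO, 3615 and 3828 CPM in control). For mt-Nd4 the values were 2296 and 4238 CPM in cKO, against 3574 and 3752 CPM in control, and for mt-Nd4l, which shares a transcript with it, 382 and 673 CPM in cKO, against 580 and 609 CPM in control. The short mt-Nd3 varied least in complex I, with 216 and 256 CPM in cKO and 249 and 253 CPM in control. In all 7 mt-Nd genes cKO replicate 2 was the lowest library in CPM and cKO replicate 3 the highest. The log2 fold changes of these 7 lay between -0.18 and 0.05. Without cKO replicate 3 that of mt-Nd2 was -0.97, where the cKO side rests on cKO replicate 2 alone.

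The catalytic core of complex IV was the most abundant transcript of the whole table: mt-Co1 stood at 12477 and 20310 CPM in cKO, against 18029 and 18825 CPM in control. This was a log2 fold change of -0.17 ± 0.53 (adjusted p in edgeR quasi-likelihood = 0.899). The partner subunits varied less between cKO libraries. For mt-Co2 there were 2309 and 3052 CPM in cKO, against 2881 and 2920 CPM in control, and for mt-Co3 2265 and 3115 CPM, against 2879 and 2969 CPM. The gene of cytochrome b in complex III, mt-Cytb, gave 3905 and 6353 CPM in cKO and 5753 and 5689 CPM in control. Of the ATP synthase genes, mt-Atp6 gave 2607 and 3485 CPM in cKO and 3149 and 3107 CPM in control. The overlapping mt-Atp8 was the only mt- member with both cKO libraries below both control libraries, at 179 and 183 CPM in cKO, against 215 and 213 CPM in control. Its log2 fold change was -0.24 ± 0.13 and did not pass (adjusted p in edgeR quasi-likelihood = 0.393).

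Per length, the 13 genes spanned a wide range. Mean FPKM (fragments relative to transcript length and library size, the authors' values) over the 4 libraries ran from 699 for mt-Nd3 to 11253 for mt-Co1, whereas tested nuclear members ran from 1.79 for Ndufb2 to 259 for Atp5a1. The makeup of the mt- pool also differed between the cKO libraries. Transcripts of mt-Nd2 made up 4.29% and 6.39% of mt- counts in cKO replicates 2 and 3, against 5.83% in each control library, and mt-Atp6 made up 7.72% and 6.19% in cKO, against 6.54% and 6.22% in control. The share of mt-Co1 was 36.9% and 36.1% in cKO, against 37.5% and 37.7% in control, and was thus below control in both cKO libraries. That of mt-Nd4l was also below control in both, at 1.131% and 1.195% in cKO, against 1.204% and 1.219% in control. The share of mt-Nd1 was 8.06% and 8.85% in cKO, against 7.51% and 7.67% in control, above control in both. For all other mt- genes the shares overlapped between groups.

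**Figure D4:**
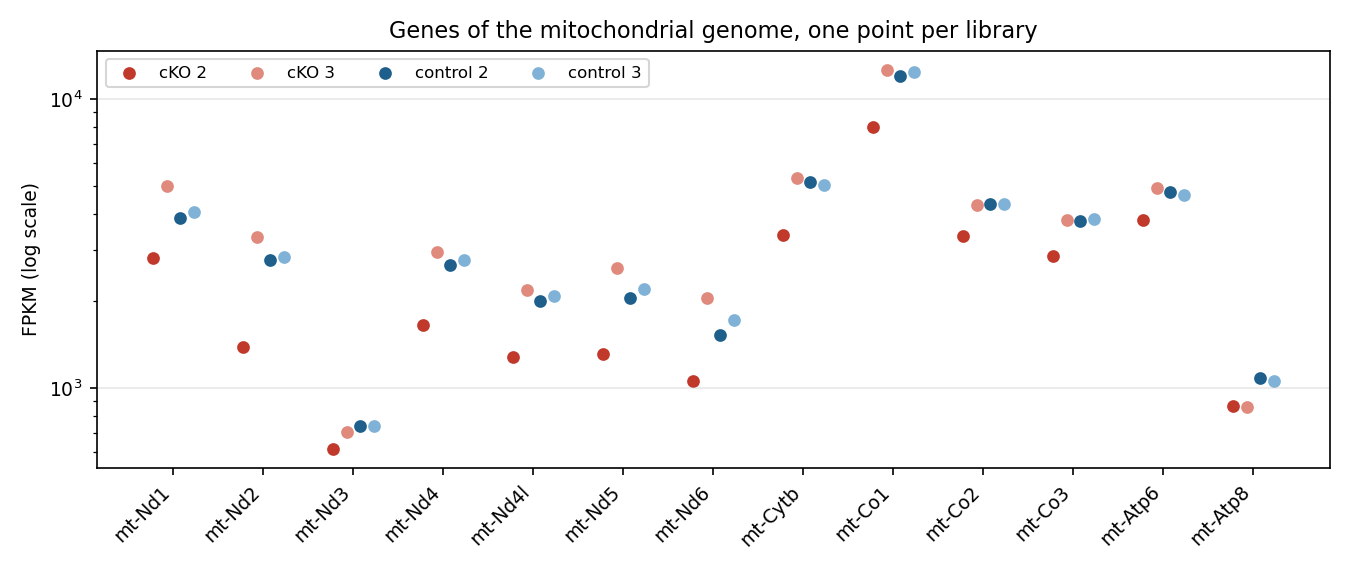
FPKM of the 13 protein genes of the mitochondrial genome on a log scale, with 1 point per library. For the mt-Nd genes the lowest point is cKO replicate 2, and the highest is cKO replicate 3 except for mt-Nd3, where on this scale both control points are higher; mt-Co1 is the most abundant gene, with 8014 FPKM in cKO replicate 2 and 12617 FPKM in cKO replicate 3.

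Nuclear subunits of complex I, 36 in number, had a median log2 fold change of -0.11, ranging from -0.53 to 0.14. Of these, 0 passed in edgeR quasi-likelihood, DESeq2, the edgeR exact test or limma voom. At an unadjusted p under 0.05 in edgeR quasi-likelihood, 2 were lower and 0 higher, where all tested genes gave 9.69% lower and 10.3% higher. In 12 of the 36 subunits, a share of 33.3%, both cKO libraries lay below both control libraries, near the 27.7% of all tested genes. In 0 both lay above, where all genes gave 25.1%. The most negative value in complex I belonged to Ndufa6, an accessory subunit, at 40.9 and 49.1 CPM in cKO, against 60.2 and 70.0 CPM in control. The difference, a log2 fold change of -0.53 ± 0.17, did not pass (adjusted p in edgeR quasi-likelihood = 0.191). The other, Ndufb3, an accessory subunit of the membrane arm named after its values were seen, stood at 41.2 and 43.1 CPM in cKO and at 57.3 CPM in each control library (log2 fold change -0.44 ± 0.13, adjusted p in edgeR quasi-likelihood = 0.164). In both genes the groups did not overlap, and the cKO libraries were close to each other in Ndufb3. Ndufb9, an accessory subunit, was the most abundant nuclear member per length in this complex. It stood at 105 and 150 FPKM in cKO replicates 2 and 3, against 147 and 146 FPKM in control. On that scale cKO replicate 2 alone was apart. In CPM it gave 68.6 and 102 in cKO, against 92.8 and 93.4 in control, so that control lay between the cKO libraries. In 32 of the 36 subunits cKO replicate 2 was the lowest library.

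Assembly factors of complex I, which help build the enzyme without staying in it, had values in both directions. Ndufaf4 stood at 27.2 and 23.3 CPM in cKO, against 19.0 and 16.2 CPM in control, and Ndufaf2 at 9.73 and 7.82 CPM in cKO, against 7.27 and 6.39 CPM in control. The groups did not overlap in either gene, and the log2 fold changes were 0.52 ± 0.19 and 0.36 ± 0.26 (adjusted p in edgeR quasi-likelihood = 0.248 and 0.519). The other 5 factors had negative values, down to -0.44 for Ndufaf3. Another 3 members are no structural subunits: Cox7a2l, a factor of supercomplex assembly, stood at 115 and 103 CPM in cKO, against 130 and 147 CPM in control. Atp5sl stood at 17.0 and 20.3 CPM in cKO, against 25.8 and 27.1 CPM in control, and Atp5s at 4.07 and 4.42 CPM, against 5.73 and 7.45 CPM. Both cKO libraries lay below both control libraries in all 3 genes, with log2 fold changes of -0.35 ± 0.14, -0.50 ± 0.18 and -0.63 ± 0.29 that did not pass (adjusted p in edgeR quasi-likelihood = 0.284, 0.236 and 0.326).

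Complex II links the tricarboxylic acid cycle to the respiratory chain. Its flavoprotein gene Sdha stood at 163 and 292 CPM in cKO replicates 2 and 3, against 242 and 293 CPM in control, its iron-sulfur gene Sdhb at 65.7 and 104 CPM, against 92.4 and 99.0 CPM, and its membrane anchor gene Sdhc at 69.7 and 108 CPM, against 103 and 114 CPM. In each of these 3 genes cKO replicate 2 was lowest. The other anchor gene, Sdhd, differed, with 79.0 and 98.7 CPM in cKO and 77.1 and 81.2 CPM in control, and a log2 fold change of 0.17 ± 0.16 (adjusted p in edgeR quasi-likelihood = 0.632). Complex III varied little between group means: over its 9 nuclear genes the log2 fold change ran from -0.10 to 0.15 with a median of -0.03. The cKO libraries lay apart, with sums of 902 and 1154 CPM, against 1006 and 1037 CPM in control. In 8 of the 9 genes cKO replicate 2 was the lowest library, and in 6 cKO replicate 3 was the highest. Uqcr10, a small subunit and the most abundant per length by its mean, stood at 91.5 and 107 FPKM in cKO, against 117 and 106 FPKM in control. Cyc1, the gene of cytochrome c1, stood at 105 and 155 CPM in cKO, against 119 and 116 CPM in control, so that the control libraries lay between the cKO libraries.

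In complex IV the sum of the ubiquitous nuclear subunits, with Ndufa4 among them, was even across the 4 libraries. Some single subunits were even as well, such as Cox6c at 119 and 120 CPM in cKO, against 114 and 119 CPM in control. Others were not. The 11 ubiquitous genes summed to 1307 and 1329 CPM in cKO replicates 2 and 3, against 1322 and 1301 CPM in control. That sum includes Ndufa4, at 175 CPM in each cKO library, against 123 and 124 CPM in control. Without Ndufa4 both cKO sums lay below both control sums. The log2 fold change was negative in 7 of the 11 and positive in 4. Over the 11 genes, cKO replicate 2 over cKO replicate 3 had a median of 0.984, running between 0.724 for Cox5a and 1.35 for Cox8a. Cox8a, the most abundant of them per length, stood at 284 and 203 FPKM in cKO, against 281 and 252 FPKM in control. Cox4i1, the form of subunit 4 in most tissues, stood at 96.9 and 118 FPKM in cKO, against 124 and 126 FPKM in control. Cox6b1 stood at 144 and 142 FPKM in cKO and at 145 and 156 FPKM in control. Cox6a1 stood at 204 and 153 FPKM in cKO, against 208 and 174 FPKM in control, and Cox7a2 at 79.98 and 60.7 FPKM, against 75.1 and 70.4 FPKM. These last genes and Cox8a were higher in cKO replicate 2 than in cKO replicate 3, opposite to their muscle counterparts.

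Promoters of nuclear members are known to hold sites of nuclear respiratory factor 1 (NRF1) and of Ets family factors, and muscle promoters often hold E-boxes. RefSeq promoters of build GRCm38.p6 were found by symbol for 73 of the 93 nuclear members, in 78 windows of the 250 bases before a transcription start. For NRF1 the letters were GCGCA, any base, then GCGC, and for Ets factors CCGGAAG, each searched on both strands. The NRF1 letters were in 19.2% of members' windows and 3.7% of all 32851 windows. The Ets letters were in 16.7% and 6.9%, and the E-box letters CAGCTG, the same on both strands, in 7.7% and 13%. A match of letters is a description and not a site of binding. Windows of Cox6a1 and Sdhd are shown because they hold both NRF1 and Ets letters, and those of Cox7a1 and Cox8b because these muscle isoforms differed widely between the cKO libraries; capitals mark every match to any of the motifs. They lie at chr5:115348959-115349208 (minus strand), chr9:50603850-50604099 (minus), chr7:30183921-30184170 (plus) and chr7:140900447-140900696 (minus).
Cox6a1: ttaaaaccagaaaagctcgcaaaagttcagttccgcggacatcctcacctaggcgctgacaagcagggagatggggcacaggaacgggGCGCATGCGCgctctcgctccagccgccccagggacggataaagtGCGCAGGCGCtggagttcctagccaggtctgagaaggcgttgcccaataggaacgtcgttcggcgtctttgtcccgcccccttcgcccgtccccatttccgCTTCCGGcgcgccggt
Sdhd: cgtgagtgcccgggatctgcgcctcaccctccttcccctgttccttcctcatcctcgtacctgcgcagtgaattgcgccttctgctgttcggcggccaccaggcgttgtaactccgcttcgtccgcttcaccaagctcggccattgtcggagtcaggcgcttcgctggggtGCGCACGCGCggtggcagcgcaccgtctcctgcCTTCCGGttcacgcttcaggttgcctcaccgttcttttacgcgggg
Cox7a1: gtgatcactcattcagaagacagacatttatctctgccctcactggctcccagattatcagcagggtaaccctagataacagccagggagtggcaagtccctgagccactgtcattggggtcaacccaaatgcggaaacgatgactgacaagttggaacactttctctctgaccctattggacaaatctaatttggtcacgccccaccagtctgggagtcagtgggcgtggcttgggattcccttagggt
Cox8b: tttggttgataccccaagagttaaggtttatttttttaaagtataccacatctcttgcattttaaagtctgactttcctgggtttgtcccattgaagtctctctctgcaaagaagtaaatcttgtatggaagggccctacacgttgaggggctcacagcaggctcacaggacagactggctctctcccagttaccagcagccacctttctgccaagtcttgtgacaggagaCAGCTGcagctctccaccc

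Cox6a1 held 2 matches to the NRF1 letters and 1 to the Ets letters, and Sdhd held 1 of each. Cox8b held 1 E-box match, and Cox7a1 had no match to any of the motifs.

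The muscle isoforms separated cKO replicate 2 from the other libraries. Cox6a2 stood at 25.3 FPKM in cKO replicate 2 and 232 FPKM in cKO replicate 3, against 151 and 201 FPKM in control. Cox7a1 stood at 5.55 and 50.9 FPKM in cKO, against 38.4 and 53.1 FPKM in control, and Cox8b at 7.50 and 70.9 FPKM, against 51.3 and 68.3 FPKM. In all 3 genes cKO replicate 2 was far below, and cKO replicate 3 lay within or near the control range. Their log2 fold changes were -0.37 ± 1.0, -0.61 ± 1.0 and -0.52 ± 1.01, and did not pass (adjusted p in edgeR quasi-likelihood = 0.882, 0.789 and 0.825). Without cKO replicate 2 they were 0.49, 0.24 and 0.33, and without cKO replicate 3 they were -2.75, -2.99 and -2.94. Each of these fits leaves a lone library in the cKO group, so only effect sizes are given. As a share of the FPKM of each isoform pair, Cox6a2 made up 11% and 60.3% in cKO replicates 2 and 3 beside Cox6a1, against 42.0% and 53.6% in control. Cox7a1 made up 6.49% and 45.6% in cKO beside Cox7a2, against 33.8% and 43.0% in control. Cox8b made up 2.57% and 25.9% in cKO beside Cox8a, against 15.5% and 21.3% in control.

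The remaining tissue-specific isoforms were scarce. Cox4i2, a form of subunit 4 known from lung and from hypoxic cells, stood at 4.65 and 3.27 FPKM in cKO, against 2.49 and 2.22 FPKM in control. Both cKO libraries lay above control, and the log2 fold change of 0.81 ± 0.35, the most positive among members, did not pass (adjusted p in edgeR quasi-likelihood = 0.301). Its share of the pair with Cox4i1 was 4.58% and 2.70% in cKO, against 1.97% and 1.73% in control. Cox6b2, known from testis, stood at 2.85 and 2.53 FPKM in cKO, against 3.89 and 4.93 FPKM in control, a log2 fold change of -0.65 ± 0.31 (adjusted p in edgeR quasi-likelihood = 0.339).

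**Figure D5:**
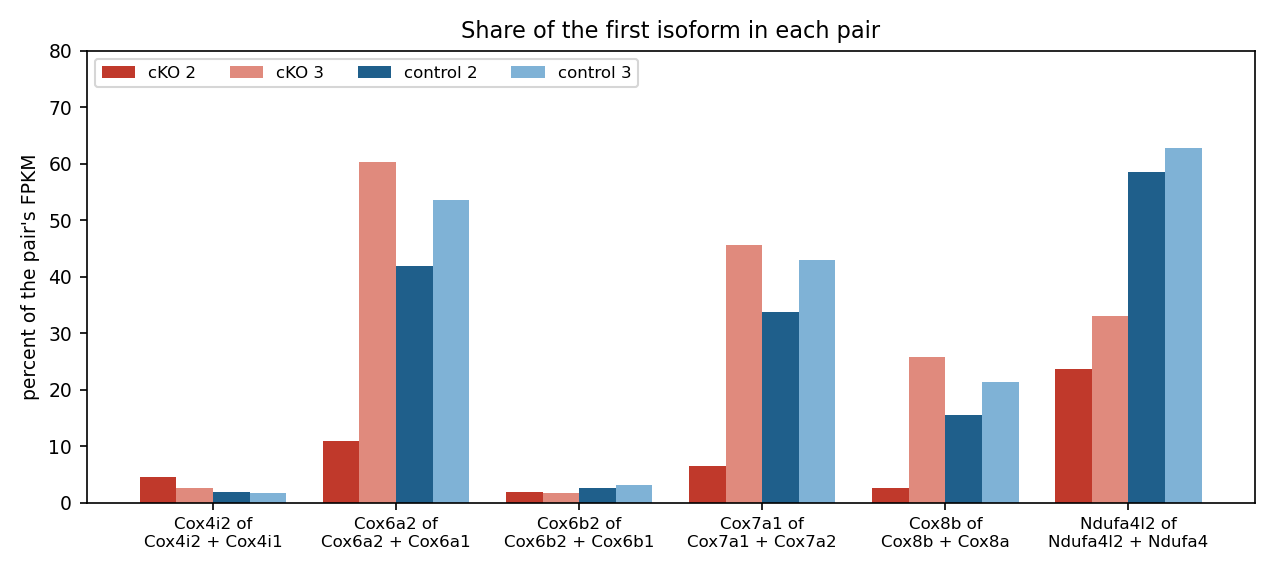
Percent of a pair's summed FPKM that comes from the isoform named first, with 1 bar per library. For the muscle forms Cox6a2, Cox7a1 and Cox8b only the cKO replicate 2 bar is low, whereas for Ndufa4l2 both cKO bars (23.6% and 33.1%) lie below both control bars (58.6% and 62.8%).

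The paralogues Ndufa4 and Ndufa4l2 had values in opposite directions. Ndufa4, first described in complex I and now counted as a subunit of complex IV, stood at 175 CPM in each cKO library, against 123 and 124 CPM in control. The libraries within each group nearly coincided, and the log2 fold change was 0.50 ± 0.12 without passing (adjusted p in edgeR quasi-likelihood = 0.126; DESeq2 adjusted p = 0.0524). Over all alternatives it ran from 0.43 to 0.52. Ndufa4l2, a hypoxia-inducible paralogue known to lower complex I activity and oxygen use, stood at 37.6 and 60.1 CPM in cKO replicates 2 and 3, against 121 and 146 CPM in control. The groups did not overlap. Its log2 fold change of -1.45 ± 0.27 was the largest of any member and did not pass in the quasi-likelihood test (edgeR adjusted p = 0.0876). It passed in DESeq2 (adjusted p = 0.000739), in the edgeR exact test (adjusted p = 0.000588) and in the authors' deposited table, which gives a log2 fold change of -1.5 and a false discovery rate of 0.00112. The log2 fold change was -1.15 without cKO replicate 2 and -1.82 without cKO replicate 3. It was -1.58 and -1.29 without control replicates 2 and 3. With no count filter it also passed (adjusted p in edgeR quasi-likelihood = 0.0319). Per length, Ndufa4l2 made up 23.6% and 33.1% of the pair's FPKM in cKO, against 58.6% and 62.8% in control.

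Complex V had the highest summed CPM of the nuclear sets, a scale not corrected for length, whereas per length its sum of 1213 and 1441 FPKM in cKO, against 1364 and 1367 FPKM in control, was below that of complex I in every library. Its 15 nuclear members summed to 3177 and 4017 CPM in cKO replicates 2 and 3, against 3423 and 3445 CPM in control. Atp5a1, the alpha subunit of the catalytic head, was the most abundant nuclear member per length by its mean over all libraries. It stood at 217 and 305 FPKM in cKO, against 258 FPKM in each control library. The groups differed by a log2 fold change of 0.09 ± 0.26 (adjusted p in edgeR quasi-likelihood = 0.889). Atp5g3, which encodes a subunit of the membrane ring, stood at 162 and 204 CPM in cKO, against 165 and 151 CPM in control (log2 fold change 0.21 ± 0.17, adjusted p in edgeR quasi-likelihood = 0.569). Both cKO libraries lay below both control libraries in 5 members of this complex, the lowest being Atp5k at 23.1 and 23.3 CPM in cKO, against 29.2 and 30.3 CPM in control, and above in 1 member, Atp5f1. These are shares of 33.3% and 6.67%, where all tested genes gave 27.7% and 25.1%. Over the 15 genes the median log2 fold change was -0.03.

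Around the complexes, 9 lists held other genes of the pathway. Of their 117 tested genes, 0 were higher and 0 lower by edgeR quasi-likelihood (adjusted p under 0.05), with 3 higher and 5 lower at an unadjusted p under 0.05. All tested genes gave 10.3% higher and 9.69% lower there. DESeq2 called 2 higher and 1 lower, where it called 6.19% and 4.62% of all genes, the exact test 0 and 1, where it called 5.64% and 4.74%, and limma voom 0. The median log2 fold change over these genes was -0.05. Among nuclear regulators, Ppara, a nuclear receptor of fatty acid oxidation genes, stood at 3.75 and 6.09 CPM in cKO, against 13.1 and 14.2 CPM in control. Its log2 fold change of -1.47 ± 0.32 did not pass (adjusted p in edgeR quasi-likelihood = 0.106) but did in DESeq2 (adjusted p = 0.00552). The related receptor gene Ppard stood at 78.9 and 87.96 CPM in cKO, against 53.7 and 52.1 CPM in control (log2 fold change 0.66 ± 0.13, adjusted p in edgeR quasi-likelihood = 0.0935; DESeq2 adjusted p = 0.0199). In both genes the groups did not overlap.

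Coenzyme Q synthesis genes had a median log2 fold change of -0.25 over 11 genes. This median was -0.06 without cKO replicate 2 and -0.38 without cKO replicate 3. Coq2, which attaches the isoprenoid tail, stood at 43.9 and 44.7 CPM in cKO, against 64.5 and 65.2 CPM in control, and Coq6, a ring hydroxylase, at 25.6 and 20.6 CPM, against 35.6 and 38.5 CPM. Neither passed (adjusted p in edgeR quasi-likelihood = 0.11 and 0.145). Pdss1, a subunit of the enzyme that makes the tail, had the largest difference of the list, at 19.5 and 12.8 CPM in cKO, against 9.77 and 6.65 CPM in control, and did not pass either (log2 fold change 0.98 ± 0.34, adjusted p in edgeR quasi-likelihood = 0.223). Over 14 tricarboxylic acid cycle genes the median was -0.01. The citrate synthase gene Cs stood at 289 and 385 CPM in cKO, against 438 and 459 CPM in control, and Idh3g, a subunit of isocitrate dehydrogenase, at 63.2 and 96.7 CPM, against 84.5 and 102 CPM. In 13 of these 14 genes cKO replicate 2 was the lowest library.

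The porin, carrier and import list had a median of 0.16 over 12 genes, with the import receptor genes Tomm20 and Tomm70a at 0.31 ± 0.15 and 0.29 ± 0.16 on the log2 scale (adjusted p in edgeR quasi-likelihood = 0.353 and 0.413). Assembly factors of complexes II to V had a median of -0.10 over 30 genes. Of these, Cox14 stood at 32.6 and 34.6 CPM in cKO, against 45.3 and 44.7 CPM in control, and Surf1 at 21.4 and 24.3 CPM, against 29.1 and 32.6 CPM; both act in complex IV assembly. Complex I factors under other names had a median of -0.13 over 7 genes, and Acad9 stood at 118 and 73.2 CPM in cKO, against 161 and 143 CPM in control, and Tmem126b at 18.5 and 17.5 CPM, against 20.8 and 21.8 CPM. The list of mitochondrial transcription and RNA stability had a median of -0.03 over 19 genes. The near-identical terminator factor genes Mterf1b and Mterf1a, among which reads may be shared, stood at 1.59 and 1.31 CPM and at 4.39 and 3.70 CPM in cKO, against 2.78 and 2.73 CPM and 6.03 and 6.52 CPM in control. Mobile carriers and subunits under other names had a median of -0.03 over 9 genes, with log2 fold changes of 0.26 ± 0.15 for 2010107E04Rik, a small ATP synthase subunit, and -0.21 ± 0.14 for Etfa, a subunit of the electron transfer flavoprotein.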

How the data were processed

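Polyadenylated RNA of skin was sequenced from TruSeq libraries, per the labels' protocols, 2 per group. Table columns headed Ctr were assigned to the group titled PP6fl/fl, since cKO is the only other one. Expected counts were deposited by the authors as whole numbers, and the submitters' processing notes name RSEM. FPKM per library, deposited by the authors per the file headers, was used for levels per length and in alternative tests. The log2 fold change and the p-value with its false discovery rate in the deposited table are the authors' own, with edgeR named in the submitters' processing notes. The notes name the build mm8. No aligner, annotation or strand setting is given in the sources used here. Reads of near-identical genes, including nuclear copies of mitochondrial DNA, may have been shared between rows.

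Genes passing filterByExpr entered edgeR 4.0.16 with TMM factors (R 4.3.3, limma 3.58.1, DESeq2 1.42.0). Libraries labelled cKO were tested against control with glmQLFit and glmQLFTest across all 17440 genes, without covariates, with Benjamini-Hochberg adjustment. Standard errors were derived from the unshrunken log2 fold change and the root of its F statistic. With 2 libraries against 2, an exact permutation test cannot go below p = 0.333, so none was run. Chi-square per gene between replicates was 93.6 in cKO and 24.2 in control, beyond sampling noise. The scripts were tested on simulated data.

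The members and lists were chosen with earlier results of these data known. Named genes are all mt- protein genes, the 6 most positive and 6 most negative log2 fold changes among members, 6 isoform pairs, the most abundant nuclear member of each complex by FPKM, and the 2 genes with the smallest p of each list; others with values complete a complex or were named after their values were seen. Alternatives covered scaling, filters, tools, FPKM with pseudocounts of 0.1 and 1, a replicate block and leaving out each library.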

Additional observations from a re-analysis of the deposited data

How the results depend on the processing

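Over all genes, 129 were higher and 61 lower in cKO in the main test. DESeq2 called 1080 and 806, the edgeR exact test 984 and 827, no count filter 494 and 389, log2(FPKM + 0.1) 12 and 8, log2(FPKM + 1) 13 and 12; library size alone called 113 lower, and a mean of at least 1 CPM 80 higher. Leaving out single libraries gave 0 to 940 higher and 0 to 724 lower, with 0 when either control library was left out. Members called lower were 0 in the main test, and 1 (Ndufa4l2) with DESeq2, the exact test, no count filter and the replicate block. Members called higher were 0 in these settings.

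Same-numbered libraries deviated together (r = 0.457 across genes of replicate 2 minus replicate 3 between groups), but the labels give only a shared number; the replicate block called 716 genes higher and 461 lower. The median log2 fold change ranged from -0.544 to 0.154 over mt- members and from -0.224 to 0.029 over nuclear members when single libraries were left out, and the mt- to nuclear ratio in cKO over control from 0.8 to 1.05 around 0.925.

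Small values changed sign; the cause was not tested. For mt-Nd1 they were -0.0233 with library size alone, -0.0193 with limma voom, -0.0812 with log2(FPKM + 0.1) and with log2(FPKM + 1), and -0.0145 with the replicate block. For mt-Nd6 they were -0.0666, -0.0801, -0.141, -0.141 and -0.0742 under these settings, and -0.0121 with no count filter. Cox7a2 gave -0.0487 with library size alone, -0.0615 and -0.0606 with FPKM and -0.000184 with no count filter. Atp5a1 gave -0.0034 and -0.0033 with FPKM. Cox6b1 gave 0.0132 with DESeq2 and with median-of-ratios size factors, and 0.00895 with scaling without mt- genes. When single libraries were left out, signs turned in 19 genes without cKO replicate 2, 5 without cKO replicate 3 and 2 and 3 without control replicates 2 and 3, and log2 fold changes ran for mt-Co1 from -0.56 to 0.14, mt-Nd4l from -0.63 to 0.18, mt-Nd4 from -0.67 to 0.21, mt-Cytb from -0.54 to 0.15, mt-Nd2 from -0.97 to 0.33, mt-Co3 from -0.36 to 0.0899, mt-Co2 from -0.32 to 0.0717, mt-Nd3 from -0.21 to 0.0278, mt-Nd1 from -0.44 to 0.42, mt-Nd5 from -0.65 to 0.38, mt-Atp6 from -0.26 to 0.15, mt-Nd6 from -0.57 to 0.42. They ran for Cox7a1 from -2.99 to 0.24, Cox8b from -2.94 to 0.33, Cox4i1 from -0.32 to 0.00524, Cox6a1 from -0.23 to 0.14, Cox6a2 from -2.75 to 0.49, Cox6b1 from -0.0711 to 0.0713, Cox7a2 from -0.17 to 0.19, Cox8a from -0.30 to 0.14, Ndufb9 from -0.43 to 0.13, Uqcr10 from -0.24 to 0.0224, Atp5a1 from -0.20 to 0.33, Idh3g from -0.55 to 0.0508. Depth limits Cox4i2, Cox6b2, Atp5s, Ndufaf2 and Ndufaf6 most, each with fewer than 200 counts in every library.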

Other observations

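The ribosomal RNAs of the mitochondrion did not follow the mt- protein genes. In libraries made with oligo(dT), mt-Rnr2 stood at 467 and 486 CPM in cKO replicates 2 and 3, against 312 and 314 CPM in control, with cKO libraries close to each other and above both control libraries. Its log2 fold change was 0.61 ± 0.15; it did not pass in edgeR quasi-likelihood (adjusted p = 0.133) and did in DESeq2 (adjusted p = 0.00982). The smaller mt-Rnr1 stood at 343 and 275 CPM in cKO, against 270 and 260 CPM in control (log2 fold change 0.22 ± 0.18, edgeR quasi-likelihood adjusted p = 0.562). Together both rRNAs amounted to 2.40% and 1.35% of the mt- protein gene counts in cKO replicates 2 and 3, against 1.21% and 1.15% in control.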
